A study of Mus musculus with 6 samples.

Results

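The Toll-like receptor genes were followed in whole bone marrow of *MxCDX2* mice, in which the human *CDX2* gene is switched on in blood-forming cells, and of control mice. The members were the 10 mouse genes *Tlr1*, *Tlr2*, *Tlr3*, *Tlr4*, *Tlr5*, *Tlr6*, *Tlr7*, *Tlr8*, *Tlr9* and *Tlr13*, taken by their symbols from the 39179 genes in the files. All 10 had enough reads to be among the 15980 genes tested. Of the proteins 5 act at the cell surface (*Tlr1*, *Tlr2*, *Tlr4*, *Tlr5* and *Tlr6*), and the other 5 act inside endosomes (*Tlr3*, *Tlr7*, *Tlr8*, *Tlr9* and *Tlr13*).

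The 3 *MxCDX2* mice were *RsCDX2::Mx1Cre* animals. They carried *RsCDX2*, the human *CDX2* coding sequence behind a loxP-flanked stop at *Rosa26*, together with *Mx1Cre*, a Cre transgene under the interferon-inducible *Mx1* promoter. The control group joined 3 genotypes with 1 mouse each, namely *RsCDX2* (control 1), *Mx1Cre* (control 2) and wild type (control 3). All 6 were littermates aged 3 months and all received poly(I:C), at 10 µg per g of body weight in 3 intraperitoneal injections, 6 weeks before RNA was taken. Poly(I:C) is a synthetic double-stranded RNA that is itself a ligand of TLR3, so control and *MxCDX2* mice shared this exposure, and no mouse without it was compared. The labels and the methods differ on the interval between injections. The *Mx1* promoter answers to interferon in many cell types, so Cre was not restricted to 1 lineage.

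Toll-like receptors are membrane proteins of innate immune cells that bind molecules typical of microbes. Surface receptors bind lipopeptides, lipopolysaccharide and flagellin, whereas endosomal receptors bind nucleic acids and depend on the chaperone UNC93B1 to reach endosomes and on proteases to be trimmed there. Signals pass through the adaptors MYD88 or TRIF to NF-κB and interferon regulatory factors, and in bone marrow these receptors are carried by monocytes, neutrophils, B cells and dendritic cells.

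Of the receptor family, *Tlr9* rose in *MxCDX2* bone marrow and no other member passed the test. The 250 bases before its RefSeq transcription start are printed as the sequence beside the gene on which the results turn, and those of *Tlr8* beside them because their window holds CDX-type sites. The sequences are RefSeq's for mouse build GRCm38.p6, read 5′ to 3′ on the strand of the gene, and they lie at chr9:106222348-106222597 (+ strand) for *Tlr9* and chrX:167264330-167264579 (- strand) for *Tlr8*. Neither window overlaps the gene as GENCODE gives it. Capitals mark matches on either strand to GAGGAAG (a core site of the myeloid factor PU.1), TTTATG or TTTATA (sites of CDX proteins) or TGANTCA (the AP-1 site).
Tlr9: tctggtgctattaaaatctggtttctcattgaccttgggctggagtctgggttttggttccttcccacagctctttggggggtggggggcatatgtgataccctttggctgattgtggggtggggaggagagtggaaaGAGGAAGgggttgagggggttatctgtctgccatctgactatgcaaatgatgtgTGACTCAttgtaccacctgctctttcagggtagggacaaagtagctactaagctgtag
Tlr8: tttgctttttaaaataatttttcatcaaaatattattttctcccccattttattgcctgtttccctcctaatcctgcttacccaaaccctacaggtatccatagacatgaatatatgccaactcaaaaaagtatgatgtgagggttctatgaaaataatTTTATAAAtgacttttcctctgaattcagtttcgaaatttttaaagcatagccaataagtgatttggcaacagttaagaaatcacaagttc

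In the *Tlr9* sequence, GAGGAAG lay 112 to 106 bases before the start and TGANTCA 58 to 52 bases before it. The 2 matches in *Tlr8* were TTTATA on opposite strands, they overlapped, and they covered bases 91 to 84 before the start. RefSeq promoters were matched for 8 of the 10 members, all but *Tlr4* and *Tlr7*. The windows of *Tlr1*, *Tlr2*, *Tlr3*, *Tlr6* and *Tlr13* ran into the genes as GENCODE gives them, by 5 to 250 bases, because the starts of the 2 annotations differ. These 8 genes had 10 promoters, because *Tlr1* and *Tlr6* had more than 1. Of the 10 promoters 3 held GAGGAAG, those of *Tlr9* and *Tlr13* and 1 of *Tlr1*, against 10.6% of 32851 mouse promoters. TTTATG was held by *Tlr1* (10.8% of all promoters), TTTATA by *Tlr6* and *Tlr8* (12.4%) and TGANTCA by *Tlr9* (6.75%). These matches describe the sequence and do not show binding.

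Libraries held 38646101 to 49899650 reads on genes. Counts on mouse *Cdx2* were 4, 0 and 0 in the control mice and 152, 155 and 183 in the *MxCDX2* mice, high in each library labelled *MxCDX2*. Reads of the human coding sequence could be counted on this gene. The first principal component (61% of the variance) separated the groups, and on the second (15.9%) the wild-type control stood apart. Many cell type markers differed between the groups. Sums of NK cell, conventional dendritic cell, eosinophil, and stromal and endothelial markers overlapped between the groups. Normalised counts are reads per gene after TMM scaling to a common library size, the mean over the 6 mice. Their sum over 10 monocyte markers was 107319 to 135245 in control and 397627 to 469334 in *MxCDX2* mice, with 8 of the 10 past both thresholds. Of 10 neutrophil markers 8 fell (sums of 1989340 to 3098164 against 816585 to 1127278), as did 5 of 10 B cell markers (21037 to 56381 against 4843 to 15712) and 4 of 7 plasmacytoid dendritic cell markers (14264 to 30230 against 12654 to 13011). Also lower were 7 of 10 macrophage markers (34941 to 100911 against 19882 to 26816), with *Marco* at 0 in 1 *MxCDX2* mouse, and 9 of 9 erythroid markers (1820338 to 2174892 against 51764 to 201758). No other marker in these lists was at 0 in any mouse. DESeq2 called more markers of 4 of these lists lower, with 10 of the 10 neutrophil, 9 of the 10 B cell, 5 of the 7 plasmacytoid dendritic cell and 8 of the 10 macrophage markers. Against their lists, *Tcf4* (0.82, edgeR adjusted p = 0.0978), a plasmacytoid dendritic cell marker, and *Adgre1* (0.75, adjusted p = 0.085), a macrophage marker, were higher at an unadjusted p below 0.05. Promyelocyte markers were higher for 2 of 5 (33137 to 178485 against 198215 to 210578). Lower were 1 of 8 T cell, 1 of 6 NK cell and 1 of 8 conventional dendritic cell markers. So were 3 of 5 basophil and mast cell, 2 of 6 stromal and endothelial and 2 of 5 megakaryocyte markers. With DESeq2 these counts were 2, 1 and 2, and then 4, 3 and 2. Against its list, the conventional dendritic cell marker *Cd209a* was higher at an unadjusted p below 0.05 (0.73, edgeR adjusted p = 0.127). Of 7 eosinophil markers 0 passed with edgeR, 2 with DESeq2, and 1 in each direction had an unadjusted p below 0.05. Megakaryocyte markers summed to 258164 in the wild-type mouse and to 21820 and 31177 in the other controls. The part of these shifts in the values below was not tested, and in bulk bone marrow fewer cells of a type cannot be told apart from less RNA per cell.

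The comparison asked whether any receptor gene changed with CDX2. A gene passed where its log2 fold change exceeded 1 in size and its p, from the quasi-likelihood test of edgeR and adjusted by Benjamini-Hochberg over all genes tested, was below 0.05. By these thresholds 1 of the 10 members rose and 0 fell. Over all genes, 13.6% passed in either direction, 4.59% as higher and 9.03% as lower, so the members' share of calls was near this background. No receptor that was lower reached an unadjusted p below 0.05, and DESeq2 likewise called 1 member. Of the members 5 had a positive and 5 a negative fold change. Their median log2 fold change was -0.04, beside 0.00 over all genes.

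*Tlr9*, on chromosome 9 (106222598 to 106226883, GRCm38), encodes the endosomal receptor for unmethylated CpG DNA. Its normalised read counts were 1214 in the *RsCDX2*, 1891 in the *Mx1Cre* and 1591 in the wild-type control. They were 2401, 4087 and 3184 in *MxCDX2* mice 1, 2 and 3. All *MxCDX2* mice therefore lay above all control mice, which held for 21.4% of all genes, and *MxCDX2* mouse 2 was the highest. The means were 1565 ± 339 and 3224 ± 844 (SD, n = 3 each), a log2 fold change of 1.04 (SE 0.24, 95% interval 0.47 to 1.61, edgeR adjusted p = 0.0251). DESeq2 gave the same fold change with an adjusted p of 0.00166. The fold change was close to the threshold, and the call was lost without control 1 (0.91, edgeR adjusted p = 0.0674), without *MxCDX2* mouse 2 (0.84, adjusted p = 0.0709) and without *MxCDX2* mouse 3 (1.06, adjusted p = 0.0792). Without the wild-type mouse it held (1.07, edgeR adjusted p = 0.0473). TLR9 is best known from plasmacytoid dendritic cells and B cells, of which 4 of 7 and 5 of 10 markers fell (5 and 9 with DESeq2), while 8 of 10 monocyte markers rose. Their part in the *Tlr9* result was not tested.

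*Tlr13* encodes a receptor for bacterial ribosomal RNA that is present in mice and absent in humans, and it lies on chromosome X (106143204 to 106160493). It had 7093, 5034 and 3772 normalised counts in controls 1 to 3 and 5821, 7337 and 8115 in *MxCDX2* mice 1 to 3. The groups overlapped through the *RsCDX2* control, which was above *MxCDX2* mouse 1. The means were 5300 ± 1677 and 7091 ± 1167 (SD, n = 3), and the log2 fold change of 0.42 (95% interval -0.16 to 1.00, edgeR adjusted p = 0.267) did not pass.

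The neighbouring X-linked genes *Tlr7* (167304929 to 167330558) and *Tlr8* (167242696 to 167264329) encode endosomal receptors, of which TLR7 binds single-stranded RNA and its fragments. Normalised counts of *Tlr8* were 2741, 1717 and 1444 in the control mice and 2933, 2403 and 2938 in the *MxCDX2* mice. Again the *RsCDX2* control lay within the *MxCDX2* range. The log2 fold change of *Tlr8* was 0.49 (SE 0.24, 95% interval -0.09 to 1.07, edgeR adjusted p = 0.203), and without that control it was 0.82 with an adjusted p of 0.0253, under the threshold of 1 on the fold change. *Tlr7* counted 1558, 1077 and 1836 in controls and 1323, 1836 and 1979 in *MxCDX2* mice. The 2 groups overlapped widely for *Tlr7*, with a log2 fold change of 0.20 (95% interval -0.37 to 0.77, edgeR adjusted p = 0.595).

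*Tlr3* (chromosome 8, 45395665 to 45411080) encodes the receptor for double-stranded RNA and thus for the poly(I:C) that every mouse had received. It was the least abundant member, with 47.3, 57.6 and 207 normalised counts in the *RsCDX2*, *Mx1Cre* and wild-type controls and 83.7, 49 and 62.7 in the *MxCDX2* mice. The wild-type mouse alone was high, and the other 5 mice lay between 47.3 and 83.7. The log2 fold change of -0.68 (95% interval -2.13 to 0.77, edgeR adjusted p = 0.475) turned to 0.32 (adjusted p = 0.531) without the wild-type mouse. The exons of *Tlr3* share 381 bases with *Gm45542* on the opposite strand, so some reads could belong to that gene, which was not analysed here. Of the marker lists, the sums for megakaryocytes (258164), macrophages (100911), conventional (110537) and plasmacytoid (30230) dendritic cells, T cells (9597), NK cells (4840), basophils and mast cells (9622) and stromal and endothelial cells (56557) were also highest in the wild-type mouse, and their part was not tested.

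**Figure D1:**
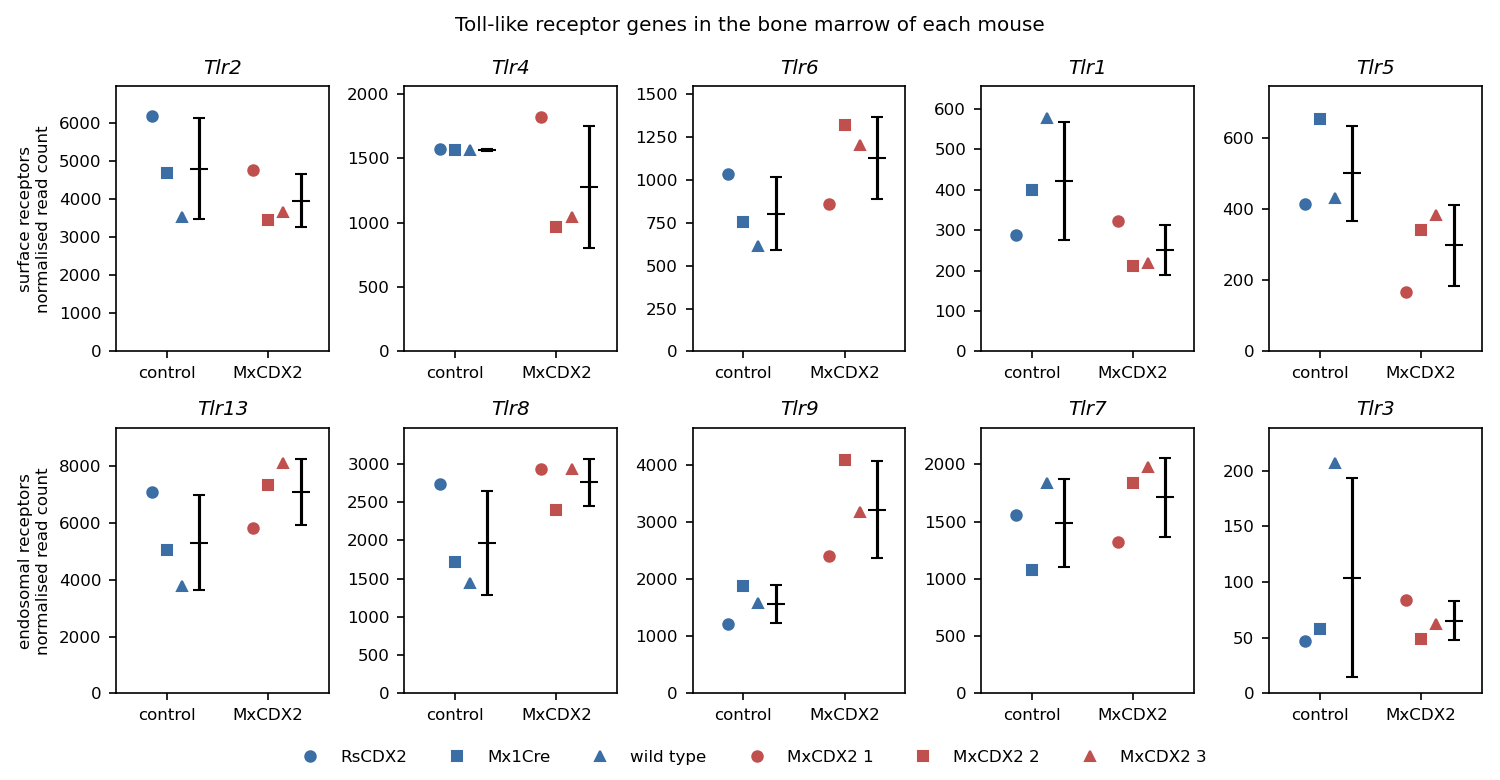
Normalised read counts of the 10 receptor genes, with 1 point per mouse and the mean ± SD (n = 3) in black beside each group. Each panel has its own linear axis from 0. *Tlr9* is the 1 gene with all *MxCDX2* mice above all controls and *Tlr5* the 1 gene with all of them below, and the wild-type control is high for *Tlr3* at 207.

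Among surface receptors 0 of 5 passed the test, with edgeR or with DESeq2, and none had an unadjusted p below 0.05. Of these, 4 had a negative log2 fold change (median -0.29), whereas 4 of the 5 endosomal receptors had a positive one (median 0.42). Only *Tlr9* among all members had a 95% interval that left out 0, and no test compared the sets. *Tlr2*, the partner of TLR1 or TLR6 in sensing bacterial lipopeptides, lies on chromosome 3 (83836272 to 83841767). It had 6186, 4672 and 3531 normalised counts in the control mice and 4765, 3456 and 3656 in the *MxCDX2* mice. The groups overlapped, with a log2 fold change of -0.28 (95% interval -0.81 to 0.26, edgeR adjusted p = 0.431).

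The partner genes *Tlr1* (64924679 to 64933563) and *Tlr6* (64952031 to 64960097) are paralogs next to each other on chromosome 5, and reads that match both could be misplaced or lost in counting. *Tlr1* had 288, 400 and 578 normalised counts in controls 1 to 3 and 322, 212 and 218 in *MxCDX2* mice 1 to 3. For *Tlr6* they were 1035, 758 and 617 in the controls and 858, 1320 and 1207 in the *MxCDX2* mice. *MxCDX2* mice 2 and 3 thus lay below all controls for *Tlr1* and above all controls for *Tlr6*, and *MxCDX2* mouse 1 lay among the controls for both. Neither passed, with log2 fold changes of -0.75 for *Tlr1* (95% interval -1.51 to 0.01, edgeR adjusted p = 0.142) and 0.49 for *Tlr6* (-0.10 to 1.08, adjusted p = 0.207). The ratio of the pair within a mouse needs no normalisation. On the log2 scale, *Tlr1* over *Tlr6* was -1.85, -0.92 and -0.09 in controls 1 to 3 and -1.41, -2.64 and -2.46 in *MxCDX2* mice 1 to 3. The ratio differed by -1.22 between the groups, with SDs of 0.88 in controls and 0.66 in *MxCDX2* mice. The groups overlapped, as control 1 lay below *MxCDX2* mouse 1 (two-sided exact permutation test, p = 0.2, adjusted p = 0.4 over 2 ratios). With 3 mice per group this test cannot give a p below 0.1, so it cannot decide whether the ratio differed. Without the wild-type mouse the difference was -0.79. For *Tlr7* over *Tlr8* the difference was -0.32 (exact p = 0.6, adjusted p = 0.6), and 0.04 without the wild-type mouse.

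*Tlr4*, the lipopolysaccharide receptor (chromosome 4, 66827584 to 66930284), was the most even member among controls, with 1571, 1559 and 1559 normalised counts. In *MxCDX2* mice it was 1821, 967 and 1046. *MxCDX2* mouse 1 lay above and the other two *MxCDX2* mice lay below every control, so the group's SD was 472 against 6.65 in controls. The log2 fold change was -0.29 (95% interval -0.88 to 0.30, edgeR adjusted p = 0.451), and -0.63 without *MxCDX2* mouse 1 (adjusted p = 0.0314), under the fold threshold.

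*Tlr5*, the flagellin receptor (chromosome 1, 182954788 to 182976044), had 415, 654 and 432 normalised counts in the controls and 168, 342 and 384 in the *MxCDX2* mice. All *MxCDX2* mice lay below all controls, as for 20.7% of all genes. The means were 501 ± 133 and 298 ± 114 (SD, n = 3), and the log2 fold change of -0.75 (SE 0.36, 95% interval -1.59 to 0.10, edgeR adjusted p = 0.183) did not pass.

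**Figure D2:**
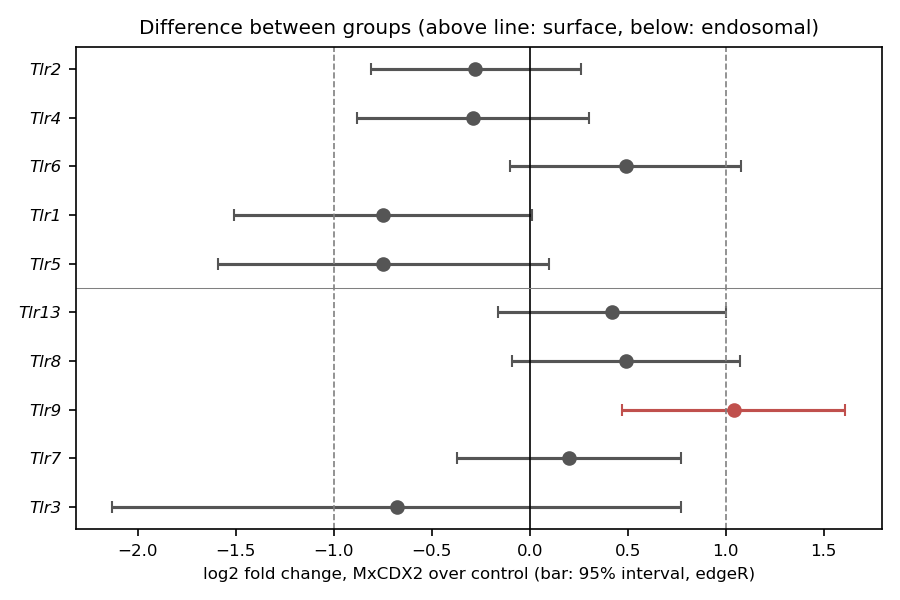
Log2 fold change of each receptor gene, *MxCDX2* over control (points), with its 95% interval from edgeR (bars) and dashed lines at the threshold of 1 in both directions. *Tlr9* (red) has an interval of 0.47 to 1.61, and the intervals of the other 9 genes include 0.

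To compare levels between genes, counts were divided by the library size and by exon length (RPKM, reads on a gene per kilobase of exon at a fixed library size). In control mice the mean RPKM was highest for *Tlr2* (35 ± 9.68, SD, n = 3) and *Tlr13* (27.1 ± 8.53), whose ranges overlapped although *Tlr2* was above *Tlr13* in each control mouse. Both lay above *Tlr8* (12.1 ± 4.19) in every control mouse. From *Tlr8* through *Tlr9* (9.93 ± 2.17) and *Tlr7* (8.03 ± 2.07) to *Tlr4* (6.19 ± 0.0289), neighbours overlapped, and *Tlr4* lay above *Tlr6* in every control (6.22 against 6.11, 6.17 against 4.47 and 6.17 against 3.64). After *Tlr6* (4.74 ± 1.26), *Tlr1* (2.77 ± 0.963) and *Tlr5* (2.3 ± 0.61), which overlapped in turn, *Tlr3* came last at 0.439 ± 0.377, without overlap with *Tlr5*. In *MxCDX2* mice the RPKM order began with *Tlr13* (36.2 ± 6), *Tlr2* (28.9 ± 5.16), *Tlr9* (20.4 ± 5.31) and *Tlr8* (16.9 ± 1.91), and each of these overlapped its neighbour. *Tlr8* was above *Tlr7* (9.24 ± 1.87) in every mouse of this group, and *Tlr3* was again last (0.275 ± 0.0735). Within mice, *Tlr13* was above *Tlr2* in *MxCDX2* mice 2 and 3 and below it in mouse 1. *Tlr9* was above *Tlr8* in *MxCDX2* mice 2 and 3 and in controls 2 and 3, and below it in mouse 1 and control 1.

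**Figure D3:**
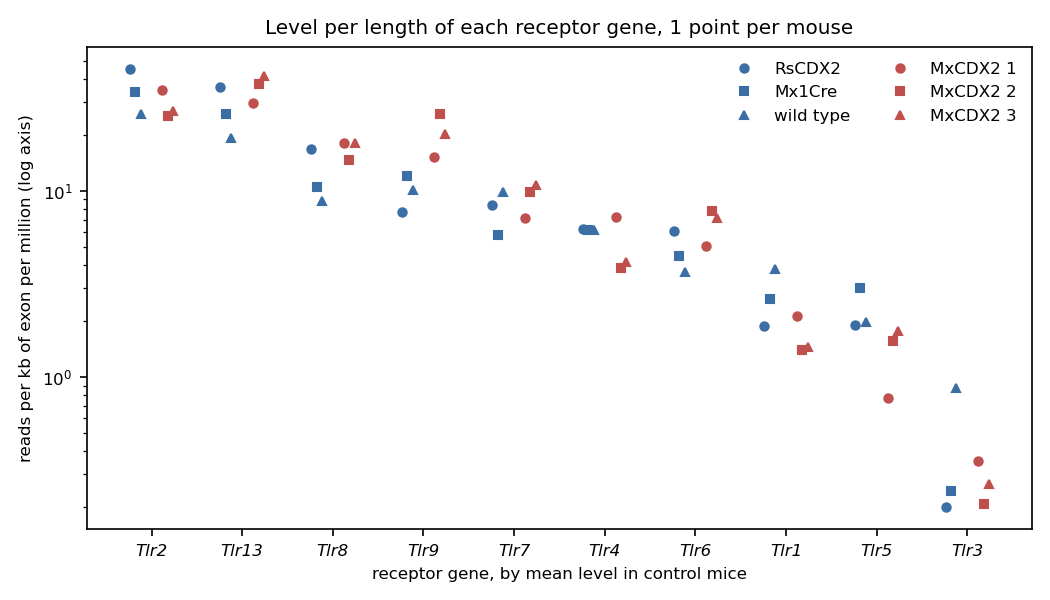
Level per length in RPKM (log axis) of each receptor gene, 1 point per mouse, ordered by the mean level in control mice. *Tlr2* and *Tlr13* lead with 19.3 to 45.1 in control mice, and *Tlr3* is lowest with 0.2 to 0.874.

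The summed RPKM of the 10 genes was 130, 105 and 90.4 in controls 1 to 3 and 120, 128 and 132 in the *MxCDX2* mice, and the groups overlapped. The make-up of this sum differed more. Endosomal receptors gave 53.1%, 51.9% and 54.2% of it in the controls and 58.5%, 68.9% and 68.8% in the *MxCDX2* mice, without overlap. *Tlr9* gave 5.89%, 11.5% and 11.2% in controls and 12.6%, 20.2% and 15.3% in *MxCDX2* mice, while *Tlr2* gave 34.6%, 32.6% and 28.5% against 28.9%, 19.7% and 20.3%. The shares of *Tlr2* overlapped between the groups through *MxCDX2* mouse 1. No test was made of these shares.

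**Figure D4:**
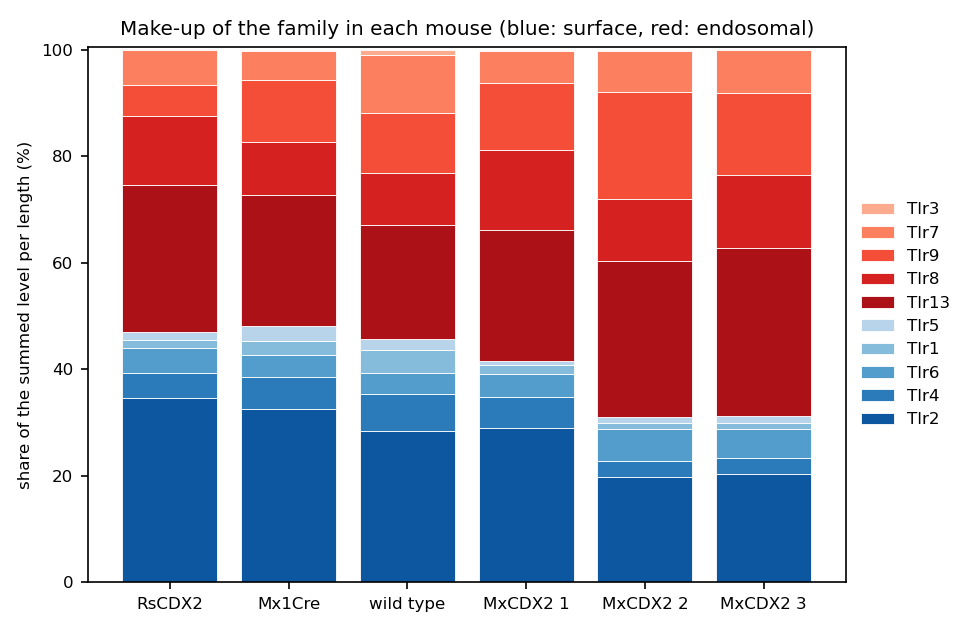
Share (%) of each receptor gene in the summed RPKM of the family, 1 bar per mouse, with surface receptors in blue and endosomal receptors in red. The red part takes 51.9% to 54.2% in the control mice and 58.5% to 68.9% in the *MxCDX2* mice.

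The other genes of the pathway were read from lists of 64 genes, all tested. Of these, 9 rose and 3 fell, with a median log2 fold change of 0.21 beside 0.00 over all genes. Set beside the 4.59% of all genes called higher and 9.03% called lower, these counts are given with no test of the lists. With the adjusted p alone 19 of the 64 passed, against 21.7% of all genes, and 1 of the 10 receptors.

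Of 8 genes for trafficking and processing of the receptors, 2 rose and 0 fell by both thresholds, and 1 was lower at an unadjusted p below 0.05. *Cnpy3*, a chaperone of Toll-like receptors in the endoplasmic reticulum, went from 3922, 3591 and 3635 normalised counts in the controls to 7254, 7135 and 8145 in the *MxCDX2* mice. Its log2 fold change was 1.02 (SE 0.10, edgeR adjusted p = 0.00196), and it was 0.99 without control 2 and 0.96 without *MxCDX2* mouse 3, below the fold threshold. *Ctss*, the protease cathepsin S, counted 9112, 9018 and 13326 in controls and 23160, 22388 and 24336 in *MxCDX2* mice (1.15, SE 0.18, adjusted p = 0.0069 by edgeR). Both genes were higher in every *MxCDX2* mouse than in any control, as were 21.4% of all genes. The other genes of this list are named after their values were seen. *Lgmn*, a protease of endosomal receptors, was the lower one, with 3575, 3262 and 5874 normalised counts in controls and 2530, 1923 and 2854 in *MxCDX2* mice (-0.80, edgeR adjusted p = 0.071, DESeq2 adjusted p = 0.0351). The cathepsin genes *Ctsl* (-0.63, edgeR adjusted p = 0.321) and *Ctsb* (-0.24, adjusted p = 0.366) and the chaperone gene *Hsp90b1* (0.58, adjusted p = 0.0911) did not pass. The transporter gene of the endosomal receptors, *Unc93b1*, had 14655, 17953 and 15019 normalised counts in controls and 28848, 30014 and 31262 in *MxCDX2* mice. The difference on the log2 scale, 0.92 (edgeR adjusted p = 0.00508), was under the fold threshold. It passed both thresholds when counts were scaled by their totals alone (1.04) and without control 2 (1.02). *Slc15a4*, an endolysosomal transporter needed for TLR7 and TLR9 signalling, had a log2 fold change of 0.71 (adjusted p = 0.0269 by edgeR), and the adjusted p was above 0.05 without control 1 (0.0505), *MxCDX2* mouse 2 (0.0861) or *MxCDX2* mouse 3 (0.0883).

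Of 6 co-receptors and accessory proteins 1 rose and 1 fell. *Cd36*, a scavenger receptor that assists TLR2 with TLR6 and is also carried by erythroid precursors, macrophages and platelets, fell from 5592, 3832 and 3945 to 891, 218 and 367 normalised counts (log2 fold change -3.18, SE 0.52, edgeR adjusted p = 0.00822). Erythroid markers (9 of 9), macrophage markers (7 of 10) and megakaryocyte markers (2 of 5) fell as well, and their part was not tested. The sum of megakaryocyte markers was highest in the wild-type mouse, at 258164. *Ly86*, which encodes MD-1, the partner of the receptor-like protein CD180, rose from 1700, 1746 and 2809 to 6566, 6971 and 6032 (1.65, SE 0.21, edgeR adjusted p = 0.00389). For both genes the groups did not overlap. Over all genes, 20.7% had every *MxCDX2* mouse below every control, like *Cd36*, and 21.4% above, like *Ly86*. *Cd180* itself had a log2 fold change of 1.00 with an adjusted p of 0.147 (edgeR), and is named beside its partner after its value was seen.

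Of 6 adaptors 2 rose and 0 fell, with 1 lower at an unadjusted p below 0.05. *Ticam2* encodes TRAM, which links TLR4 to TRIF, and went from 468, 657 and 375 to 1483, 1484 and 1711 normalised counts (log2 fold change 1.64, SE 0.23, edgeR adjusted p = 0.00467). *Sarm1*, known as a negative regulator of TRIF and as a neuronal NADase, was scarce, with 7.67, 16.9 and 11.9 against 39.2, 30.4 and 44.4 normalised counts. Its log2 fold change was 1.62 (SE 0.39, edgeR adjusted p = 0.0292), and the call was lost without control 1 (adjusted p = 0.0824), control 3 (0.0519) or any of *MxCDX2* mice 1, 2 and 3 (0.0772, 0.0542 and 0.11). *Myd88*, the adaptor of all members here but *Tlr3*, was not called (0.28, edgeR adjusted p = 0.116) and is named as the shared adaptor.

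Downstream, 1 of 14 genes for kinases and ubiquitin ligases fell and 0 rose, although 3 were higher at an unadjusted p below 0.05 in edgeR. The gene that fell was *Tab3*, a partner of the kinase TAK1, with 3119, 2975 and 2027 normalised counts in controls and 1029, 1010 and 911 in *MxCDX2* mice (log2 fold change -1.46, SE 0.18, edgeR adjusted p = 0.00356). Of 8 transcription factors 0 fell by both thresholds and 1 rose. This was *Irf5*, which acts below MYD88 in monocytes and macrophages, with 3568, 5090 and 3455 normalised counts in controls and 12751, 13655 and 16194 in *MxCDX2* mice (1.81, SE 0.19, edgeR adjusted p = 0.00224). *Irf5* was higher in every *MxCDX2* mouse than in any control, which held for 21.4% of all genes. The sum of the monocyte markers was also higher in every *MxCDX2* mouse, whereas 7 of 10 macrophage markers fell. The part of these cells in the *Irf5* result was not tested. *Relb* was lower but under the fold threshold (-0.75, edgeR adjusted p = 0.0154, DESeq2 adjusted p = 0.000243), and is named after its value was seen. Among 10 inhibitors 1 fell, *Il1rl1*, which encodes the interleukin-33 receptor ST2 and is also found on mast cells. It had 2180, 1786 and 1329 normalised counts in controls against 632, 146 and 156 (-2.50, SE 0.61, edgeR adjusted p = 0.0304). Of the basophil and mast cell markers 3 of 5 fell as well (4 with DESeq2). The others, *Cpa3* (-0.23, edgeR adjusted p = 0.677) and *Gata2* (-1.21, adjusted p = 0.0766), did not pass with edgeR. The part of these cells in the *Il1rl1* result was not tested. The call on *Il1rl1* was lost without control 1 (-2.32, adjusted p = 0.0752), control 2 (-2.50, 0.065), *MxCDX2* mouse 2 (-2.16, 0.0814) or *MxCDX2* mouse 3 (-2.18, 0.0939).

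Sensors of nucleic acids outside this family were also read. Of 10 RNA and DNA sensors and their adaptors, 3 rose and 0 fell, with 1 lower at an unadjusted p below 0.05. *Zbp1*, a sensor of Z-form nucleic acids, had 532, 543 and 1054 normalised counts in controls and 3239, 2807 and 2113 in *MxCDX2* mice (log2 fold change 1.94, SE 0.32, edgeR adjusted p = 0.00807). *Tmem173*, which encodes the adaptor STING, had 2750, 2193 and 2642 against 8935, 5378 and 6406 (1.45, SE 0.20, edgeR adjusted p = 0.00507). *Cgas*, the DNA sensor upstream of STING, had 1107, 893 and 771 against 2161, 1840 and 1873 (1.08, SE 0.16, edgeR adjusted p = 0.00646), and 0.99 without the wild-type mouse, just under the fold threshold. In all of these genes every *MxCDX2* mouse lay above every control, which held for 21.4% of all genes. Neither of the remaining mouse receptors, *Tlr11* and *Tlr12*, passed with edgeR or DESeq2, and neither had an unadjusted p below 0.05. *Tlr12*, a profilin receptor, had 175, 304 and 1016 normalised counts in controls and 432, 255 and 246 in *MxCDX2* mice (-0.68, edgeR adjusted p = 0.496), and like *Tlr3* it was high in the wild-type mouse and turned to 0.39 without it.

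**Figure D5:**
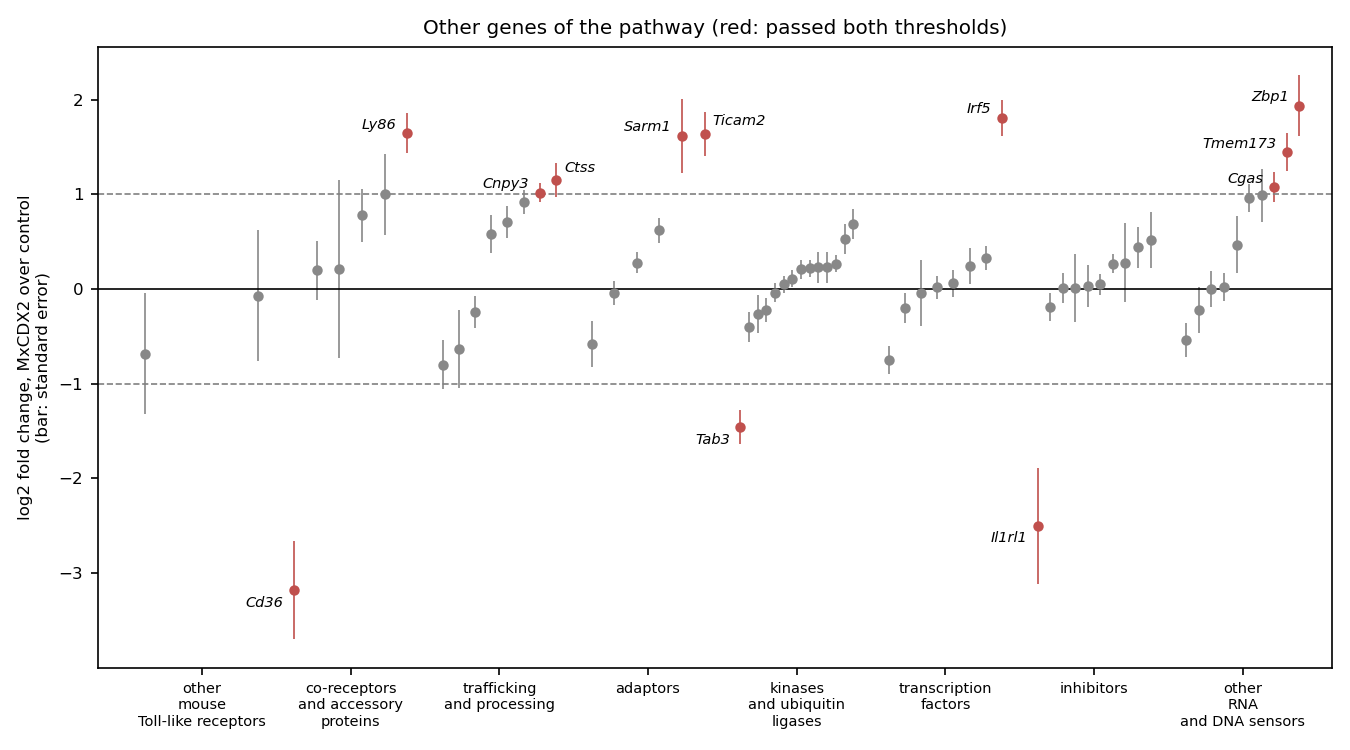
Log2 fold change, *MxCDX2* over control, with its standard error for the 64 other genes of the pathway, in 8 lists. Red points are the 12 genes past both thresholds (dashed lines at a log2 fold change of 1 in both directions), 9 higher and 3 lower, from -3.18 for *Cd36* to 1.94 for *Zbp1*.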

How the data were processed

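Stranded mRNA-seq of bone marrow from 6 mice was read from 6 files of raw counts. The authors aligned reads to GRCm38 (STAR 2.5), obtained gene-level counts (HTSeq 0.6.1) and deposited the read counts without normalization. The strand setting of the counting is not given in the sources used here. Rows for reads on no gene or on several genes held 12.2% to 17.1% of counts and were left out. Of 39179 identifiers 37693 were named from GENCODE M21, which also gave positions and exon lengths, and may differ from the annotation that was counted.

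Groups came from the sample labels. The 3 control mice differ in genotype, with 1 mouse of each, so their spread includes genotype. Counts were tested with edgeR 4.0.16 in R 4.3.3 (TMM, filterByExpr, glmQLFit, glmQLFTest, no covariate), with Benjamini-Hochberg adjustment over 15980 genes, and calls needed an adjusted p below 0.05 and a log2 fold change over 1 in size. Standard errors were derived from the F statistic. Ratios had 0.5 added to each count. The tests were tested on simulated data, where DESeq2 found more of the changed genes than edgeR but also made more false calls. DESeq2 1.42.0, limma 3.58.1 (voom), other scalings and filters, a replicate block and each mouse left out were alternatives. Those for single pathway genes were added after the data were seen. The members, pathway lists and marker lists were chosen with earlier results of these data known. Named were all members and, in each pathway list, the called genes (at most 4, lowest adjusted p) or else the gene with the lowest adjusted p. Errors are over mice. Tables and figures used Python 3.11.15, pandas 2.3.3, numpy 2.4.6 and matplotlib 3.10.9.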

Additional observations from a re-analysis of the deposited data

How the results depend on the processing

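Under 14 alternatives, 136 of 140 receptor values kept their direction and their call by both thresholds together. The exceptions were *Tlr9*, whose call was lost in 3 of 6 fits with 1 mouse left out, and *Tlr3*, which ranged from -1.01 to 0.32 with 1 mouse left out and was positive only without the wild-type mouse, the one control with a high count. With the adjusted p alone, *Tlr8* passed without control 1 (0.0253) and *Tlr4* without *MxCDX2* mouse 1 (0.0314). With 1 mouse left out, 0 to 1 receptors and 9 to 12 pathway genes were called, and the differences of the log2 ratios ranged from -1.66 to -0.79 for *Tlr1* to *Tlr6* and from -0.54 to 0.04 for *Tlr7* to *Tlr8*. *Tlr9* ranged from 0.84 to 1.22 over all alternatives (edgeR, DESeq2 and limma adjusted p 0.00166 to 0.0792). With no fold threshold 19 pathway genes passed. Of 209 values of 15 named pathway genes, 193 kept direction and call, 13 lost and 2 gained the call, and *Tlr12* (-1.07 to 0.39 with 1 mouse left out) turned positive without the wild-type mouse. *Sarm1* had too few counts for the filter of 10 in every mouse. Total-count scaling raised the median log2 fold change of all genes to 0.118. Without *MxCDX2* mouse 3, 1205 genes in all were called, against 2177. The numbers of the control mice only name them. Deviations correlated at 0.163, 0.287 and 0.179 between mice of the same number, each mouse's highest, which is a hint from the data and not the design. With the replicate block, 1 receptor, 11 pathway genes and 2205 genes in all were called, and *Sarm1* lost its call (1.65, edgeR adjusted p = 0.0576). The cause of these changes was not tested.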
